A study of Mus musculus with 2 samples.

Results

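The Mir322, Mir503 and Mir351 polycistron is a group of 7 microRNA genes on one strand of the mouse X chromosome: Mir322, Mir503, Mir351, Mir542, Mir450-2, Mir450-1 and Mir450b, in the order of transcription. The members were all genes in the count files whose Ensembl identifier carries one of those names in GENCODE M21, which gave 7 of 2202 annotated microRNA genes. Their levels are described here in hearts of female B6CASTF1/J mice, hybrids of C57BL/6J and CAST strains, taken 4 days after birth. Each of 2 hearts gave 1 library of RNA under the size limit named in the labels, and both libraries form a single group, so that there is no contrast between conditions. The labels number the animal of replicate 1 as 3 and that of replicate 2 as 4, although both carry the same donor entry; if the samples were not from separate animals, the spread between them would be technical. What follows is therefore the level of each member and the spread between 2 hearts.

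A microRNA is cut from a hairpin in a longer transcript, and 1 transcript can carry several hairpins, in which case it is called polycistronic. The mature strand finds its target messenger RNAs mostly through its seed, the bases near its 5′ end, so microRNAs with the same seed are counted as a family. Mouse miR-322 corresponds to human miR-424. With miR-503 it belongs to the extended miR-15/16 family, known for holding back cell-cycle genes such as those of cyclins and of the phosphatase Cdc25a, and in mouse muscle cell cultures both microRNAs are known to promote the exit from the cell cycle that goes with differentiation. miR-351 carries the seed of the miR-125 family, a family known from stem cell and differentiation studies. miR-542 and the miR-450 genes lie further along the same strand.

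The mature sequences are shown because they sort the members into families and mark those whose reads cannot be told apart. They are from RefSeq (GRCm38.p6), 5′ to 3′, all on the minus strand of chromosome X, with the seed (bases 2 to 8) in capitals.
miR-322-5p: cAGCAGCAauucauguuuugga
miR-503-5p: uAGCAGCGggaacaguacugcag
miR-351-5p: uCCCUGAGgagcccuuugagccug
miR-542-3p: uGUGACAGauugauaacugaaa
miR-450a-5p (from both Mir450-1 and Mir450-2): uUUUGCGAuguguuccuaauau
miR-450b-5p: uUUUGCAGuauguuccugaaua

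miR-322 held the AGCAGCA seed, which 10 other annotated genes also carry, the miR-15, miR-16, miR-195 and miR-497 genes among them. miR-503 kept bases 2 to 7 of that seed and ended in G. No other gene had that form among the 1685 of 1738 RefSeq mature entries that were placed on a gene. Among the same entries, the CCCUGAG seed of miR-351 was found in 5 other genes, and the GUGACAG seed of miR-542-3p in none. The deposited counts are per hairpin gene, so reads of the 5′ and the 3′ arm are summed and the arm in use cannot be read from them.

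The 3 miR-450 hairpins are alike in part, and Mir450-1 and Mir450-2, called near-copies here, have the same 5′ arm. RefSeq gives all 3 as follows, with both mature arms in capitals.
Mir450-2 (GRCm38.p6, chrX:53048299-53048367, minus strand): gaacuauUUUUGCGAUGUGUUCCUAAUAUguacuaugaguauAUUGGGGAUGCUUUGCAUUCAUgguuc
Mir450-1 (chrX:53048154-53048244, minus strand): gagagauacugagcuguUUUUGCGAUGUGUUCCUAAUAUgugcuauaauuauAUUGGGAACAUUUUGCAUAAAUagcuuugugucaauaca
Mir450b (chrX:53047997-53048078, minus strand): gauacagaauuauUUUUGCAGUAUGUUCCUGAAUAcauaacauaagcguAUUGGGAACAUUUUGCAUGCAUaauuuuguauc
The 5′ arms of Mir450-1 and Mir450-2 were identical over all 22 nt, and the 3′ arms of Mir450-1 and Mir450b shared an unbroken stretch of 18 nt. Reads that match more than 1 place are in no gene's count in these files (5722879 reads in replicate 1 and 5835632 in replicate 2 were set aside as multi-mapped). The counts of Mir450-1 and Mir450-2 therefore leave out any read that lies wholly in their common arm, and their levels below are lower limits. Those were the 2 of 7 members that had 20 consecutive nt in common with a different microRNA gene, against 49.4% of all annotated genes.

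The polycistron covered 6353 nt of the mm10 build (chrX:53047997-53054349, minus strand). Its hairpins lay in an upstream trio and a downstream group of 4. Mir322 came first (chrX:53054255-53054349), followed after 200 nt by Mir503 (chrX:53053984-53054054) and after a further 630 nt by Mir351 (chrX:53053255-53053353). A gap of 3767 nt separated Mir351 from Mir542 (chrX:53049403-53049487). Mir450-2 followed Mir542 after 1035 nt, and the 3 miR-450 hairpins were only 54 and 75 nt apart. No other gene span in GENCODE M21 covered a hairpin. The lincRNA Gm28730 filled part of the gap between Mir351 and Mir542 on the same strand, and the noncoding gene C430049B03Rik ended 696 nt upstream of Mir322, also on that strand. Of the 6 hairpins that RefSeq gives, those of Mir322, Mir503 and Mir542 were 51.6%, 54.9% and 51.8% G or C, while those of Mir450-2, Mir450-1 and Mir450b were 36.2%, 33.0% and 30.5%.

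**Figure D1:**
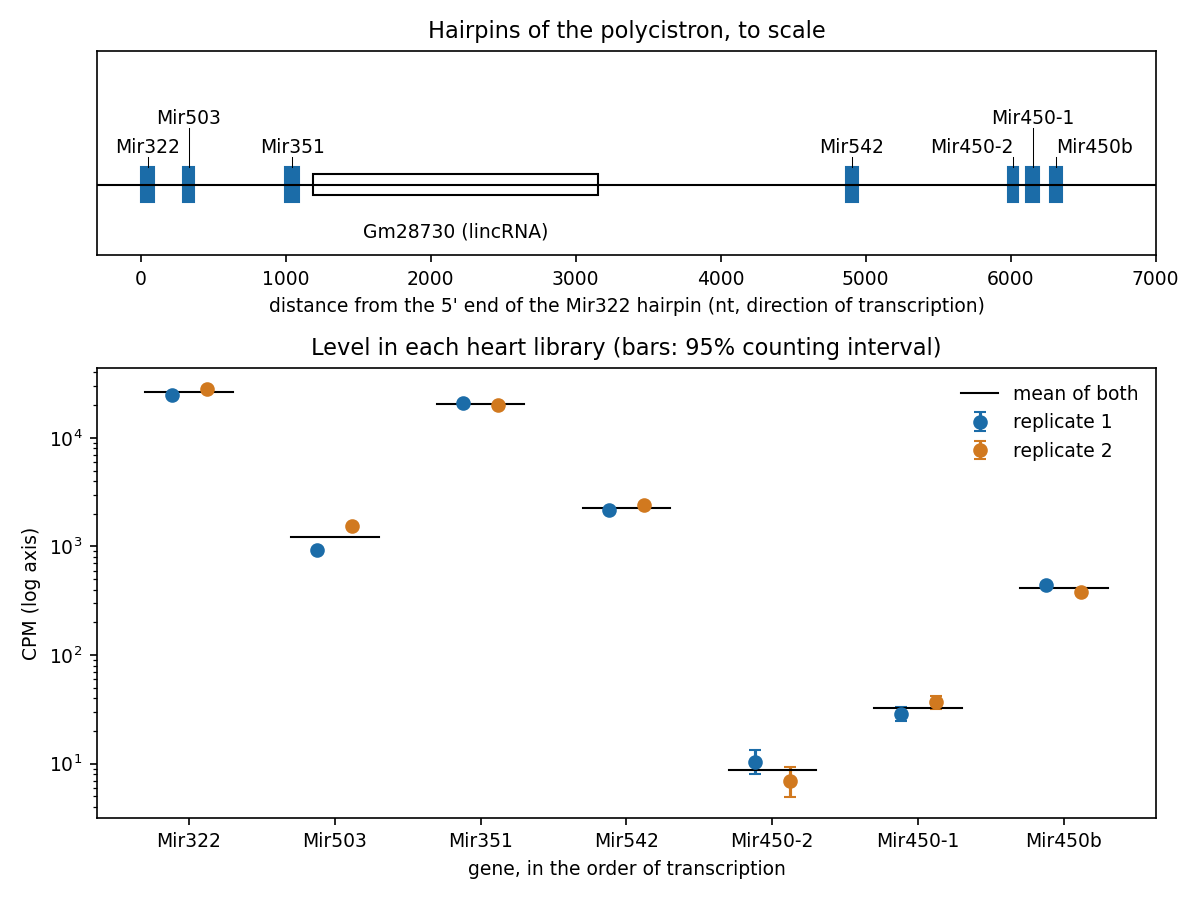
The upper panel draws the 7 hairpins (filled) and the lincRNA Gm28730 (open) to scale, by distance in nt from the 5′ end of Mir322. The lower panel gives CPM on a log axis for each gene in replicate 1 (left point) and replicate 2 (right point), with the mean as a line and 95% counting intervals as bars; levels run from 26636 CPM for Mir322 to 8.66 CPM for Mir450-2 and do not follow the order of the hairpins.

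Replicate 1 held 6417302 counts over microRNA genes on their own strand and replicate 2 held 5662222. Levels are given as CPM, counts scaled to 1000000 of that total. A floor of 3 counts was 0.467 CPM in replicate 1 and 0.530 CPM in replicate 2, below every member. All intervals cover counting error only, since no molecular identifiers are named and reads are not independent molecules. All 7 members reached 10 counts in both libraries, as did 16.9% of all annotated genes, and 3 of the 7 reached 1000 CPM in each library (3.22% of all annotated genes). In both libraries no member had a read on the opposite strand. Most of the 373 genes with at least 10 counts in both had none either, and 8.85% had at least 1 in either library. Of the 7 heart muscle markers, 5 reached 10 counts in both libraries. Those that lie in myosin genes had the most assigned counts. Mir208a had 10883 CPM in replicate 1 and 6019 CPM in replicate 2. In the same order, Mir208b had 7457 and 5640 CPM, and Mir499 had 2653 and 7487 CPM. The Mir1a genes had 9 to 190 counts each, Mir133a-1 had 36 and 43, and Mir133a-2 had 12 and 2. Mir1a-1 and Mir133a-2, for example, have 20 consecutive nt in common with a different microRNA gene. Reads that match more than 1 gene are left out, so all the Mir1a and Mir133a counts are lower limits and do not show a low level. Of the 6 neuronal markers, 4 were at 0 in both libraries and the others had at most 3 counts. These markers are copies of Mir124a and Mir9, some of which share 20 consecutive nt with a different microRNA gene. Reads that match more than 1 copy are left out, so these values do not show absence.

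Together the 7 genes took up 4.93% of all microRNA reads counted in replicate 1 (exact 95% interval after Clopper and Pearson, 4.92 to 4.95), and in replicate 2 they took up 5.29% (5.27 to 5.31), which averages 5.11% ± 0.253 (SD, n = 2). Chromosome X held 142 annotated microRNA genes, 36 of which reached 10 counts in both libraries. In assigned counts, the polycistron made up 54.5% of the chromosome's microRNA counts in replicate 1 and 62.2% in replicate 2. Multi-mapped reads are missing from the members and from the rest of the chromosome. In the X-linked cluster from Mir363 to Mir106a, for example, only 3 of the 4 genes past the minimum shared no 20-nt stretch. These shares and the levels below therefore hold for assigned reads only. The next X-linked genes were Mir652 (21825 and 12959 CPM), Mirlet7f-2 (3878 and 4953 CPM) and Mir98 (3924 and 4376 CPM), each in replicate 1 and then replicate 2. Mir652 was the only one of these above 10000 CPM, as Mir322 and Mir351 were. These are counts from whole tissue, in which fewer cells of a type and less RNA per cell cannot be told apart.

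Mir322, the first hairpin of the transcript, was the most abundant member. It had 159740 counts (24892 CPM) in replicate 1 and 160689 counts (28379 CPM) in replicate 2, a mean of 26636 ± 2466 CPM (SD, n = 2). By assigned counts it stood at place 11 of the 2202 genes in replicate 1 and at place 10 in replicate 2. Mir351, which lies behind Mir503, followed with 133937 counts (20871 CPM) and 114285 counts (20184 CPM), a mean of 20528 ± 486 CPM, at places 15 and 13. The order of these was the same in both hearts, with no overlap between the values, although Mir322 was only 1.19-fold above Mir351 in replicate 1 and 1.41-fold above it in replicate 2.

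Mir503, the hairpin between them, was far lower. It had 5944 counts (926 CPM) in replicate 1 and 8646 counts (1527 CPM) in replicate 2, a mean of 1227 ± 425 CPM (SD, n = 2). Mir322 gave 26.9 reads for each read of Mir503 in replicate 1 and 18.6 in replicate 2, although their hairpins are 200 nt apart. The ratio differed between the hearts by more than the counting error: Mir503 made up 3.59% of the sum of both genes in replicate 1 (95% interval 3.50 to 3.68) and 5.11% in replicate 2 (5.00 to 5.21).

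In the downstream group, Mir542, whose 3′ arm is known in human cells as a regulator of the survival gene BIRC5, was the leading member. It had 13777 counts (2147 CPM) in replicate 1 and 13505 counts (2385 CPM) in replicate 2, a mean of 2266 ± 168 CPM (SD, n = 2). Mir542 thus lay above Mir503 in both hearts, 2.32-fold in replicate 1 and 1.56-fold in replicate 2, despite its place behind the gap of 3767 nt. Its ratio to Mir322 hardly moved: Mir322 gave 11.6 reads for each read of Mir542 in replicate 1 and 11.9 in replicate 2, and the intervals of the share of Mir542 in their sum (7.81% to 8.07% and 7.63% to 7.88%) overlapped.

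Among the miR-450 genes, the last hairpin had the most counts. Mir450b had 2845 counts (443 CPM) in replicate 1 and 2134 counts (377 CPM) in replicate 2, a mean of 410 ± 47.0 CPM (SD, n = 2). Mir450-1 had 185 counts (28.8 CPM) and 209 counts (36.9 CPM), and Mir450-2 had 67 counts (10.4 CPM) and 39 counts (6.89 CPM), again in replicate 1 and then replicate 2. Mir450b was 15.4-fold above Mir450-1 in replicate 1 and 10.2-fold above it in replicate 2, a gap in counts that includes the reads left out for the common arm of Mir450-1 and Mir450-2. Of the counts that could be assigned to either of those near-copies, Mir450-2 held 26.6% in replicate 1 (95% interval 21.2 to 32.5) and 15.7% in replicate 2 (11.4 to 20.9).

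By mean CPM, with multi-mapped reads left out, the members ran Mir322, Mir351, Mir542, Mir503, Mir450b, Mir450-1 and Mir450-2. For each of the 6 pairs of neighbours in that order, the lower of the 2 values of the higher gene exceeded the higher value of the lower gene. With 2 hearts this describes these libraries and is no test. A read covers a mature microRNA and not a stretch of a long transcript, so CPM was not divided by length. Per 100 nt of hairpin the order was the same, with 28038 CPM for Mir322, 20735 for Mir351, 2666 for Mir542, 1728 for Mir503, 500.1 for Mir450b, 36.1 for Mir450-1 and 12.6 for Mir450-2.

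**Figure D2:**
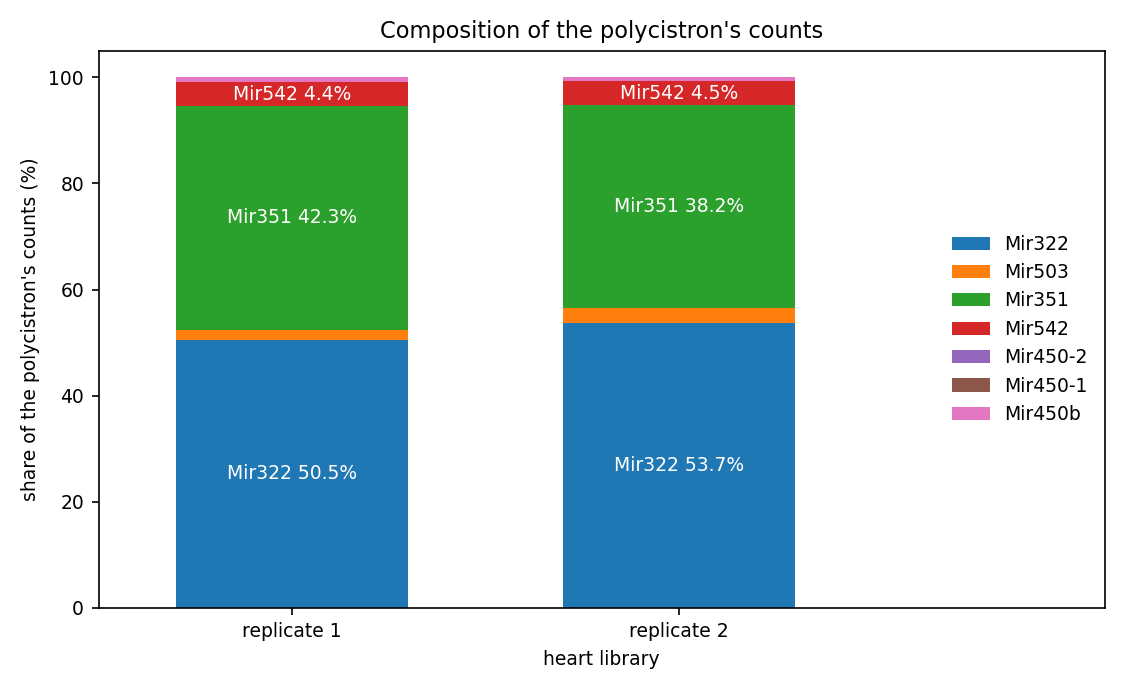
Stacked bars give each gene's share (%) of the polycistron's own counts in replicate 1 and replicate 2, starting at 0. Mir322 and Mir351 fill most of both bars, with Mir322 at 50.5% and 53.7% and Mir351 at 42.3% and 38.2%. The 3 miR-450 genes together are a thin band at the top, in counts that leave out the multi-mapped reads of Mir450-1 and Mir450-2.

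Shares within the polycistron do not depend on how a library is scaled. Mir322 made up 50.5% of the polycistron's counts in replicate 1 (95% interval 50.3 to 50.6) and 53.7% in replicate 2 (53.5 to 53.8). Mir351 made up 42.3% (42.1 to 42.5) and 38.2% (38.0 to 38.3), so its share was higher in replicate 1, where that of Mir322 was lower. Mir503 made up 1.88% and 2.89%, Mir542 4.35% and 4.51%, and Mir450b 0.899% and 0.713%. The upstream trio as a whole held 94.67% in replicate 1 (94.59 to 94.75) and 94.70% in replicate 2 (94.61 to 94.78). Reads of the common arm of Mir450-1 and Mir450-2 are missing from the polycistron's total. In that respect the shares of the trio and of the other members are upper limits. In assigned counts, the division between trio and downstream group differed by less than the counting error. The shares inside the trio differed by more than that error.

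The hearts were then compared gene by gene, as the log2 ratio of replicate 1 over replicate 2 with library sizes scaled by TMM factors, which are set so that most genes do not differ. With 1 library on each side there is no replicate check on such a ratio and no test was made; a gene was called past 2-fold when its log2 ratio exceeded 1 in size. One of the 7 members, Mir503, was past 2-fold, against 11.8% of the 373 genes that reached 10 counts in both, so the members' count was close to that background. Mir503 had a log2 ratio of −1.02 (95% counting interval −1.07 to −0.98), lower in replicate 1, on a side where 8.04% of the 373 genes were called. Its interval reached inside 2-fold. Scaled by total counts its log2 ratio was −0.72 and 0 of the 7 members were past 2-fold, against a background of 12.9%. With median-of-ratios size factors it was −1.01, and 1 of the 7 was past 2-fold, against 12.3%. TMM lowered every log2 ratio by 0.30 relative to total counts, and the median of the 373 genes was −0.07 with TMM and 0.24 with total counts.

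The remaining members lay inside 2-fold. The log2 ratio was −0.49 for Mir322, −0.25 for Mir351, −0.46 for Mir542, −0.66 for Mir450-1, −0.07 for Mir450b and 0.29 for Mir450-2. With TMM 6 of the 7 were below 0, as was the median of the 373 genes (−0.07, lower quartile −0.44, upper quartile 0.32). With total counts Mir351 (0.05) and Mir450b (0.23) lay above 0, so their direction depended on the scaling. Mir450-2 was above 0 with both scalings (0.59 with total counts), but its counting interval with TMM (−0.29 to 0.91) covered 0. Relative to the median of the 373 genes, which does not depend on the scaling, Mir503 stood at −0.96, Mir450-1 at −0.59, Mir322 at −0.43, Mir542 at −0.39, Mir351 at −0.19, Mir450b at −0.0034 and Mir450-2 at 0.35. The median over the 7 members was −0.46 with TMM, against −0.07 over the 373 genes. Marker lists of other cells also differed between the libraries. The skeletal muscle list (1 of its 2 genes past the minimum of 10 counts) summed to 719 CPM in replicate 1 and 60.0 CPM in replicate 2, nearly all of it Mir206. The fibroblast list (3 of 4 genes, with Mir199a-1 at 0) summed to 10866 CPM in replicate 1 and 22305 CPM in replicate 2, a difference that came from Mir21a (5250 and 19313 CPM). Mir214 ran the other way (5595 and 2969 CPM), and Mir199a-2 had 20.9 and 22.8 CPM. Mir199a-2 has 20 consecutive nt in common with a different microRNA gene. The Mir199a values leave out reads that match more than 1 gene and are lower limits. The erythroid list (3 of 3 genes) summed to 788 CPM in replicate 1 and 299.7 CPM in replicate 2. In the same order, the endothelial list (Mir126a alone) had 51829 and 73011 CPM and the vascular smooth muscle list 47055 and 60331 CPM. The leukocyte list summed to 1301 and 872 CPM, the epithelial list to 437 and 325 CPM, and Mir122 for liver had 105 and 86.2 CPM. Against those sums ran Mir223 (83.1 and 148 CPM), Mir150 (168 and 171 CPM) and Mir205 (1.40 and 31.8 CPM). The part of these lists in the members' ratios was not tested.

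**Figure D3:**
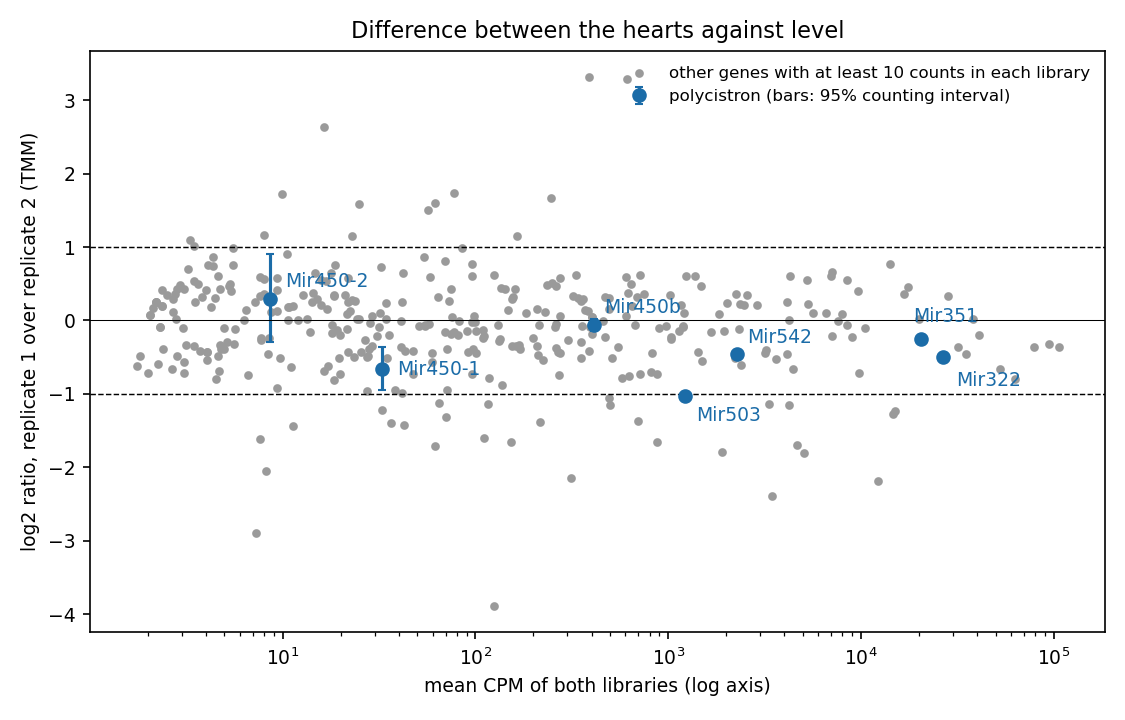
Each point is a gene that reached 10 counts in both libraries, by its mean CPM (log axis) and its log2 ratio of replicate 1 over replicate 2 with TMM scaling; blue points with 95% counting intervals are the 7 members and dashed lines mark 2-fold. The members lie within the cloud of other genes, with Mir503 at −1.02 on the lower dashed line and Mir450-2, the member with the fewest counts, carrying the widest interval.

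Mir322 and Mir503 were next set beside the genes that share bases 2 to 7 of their seed. The sequences of the most abundant of these, from RefSeq (GRCm38.p6) with bases 2 to 8 in capitals, show how far the likeness to miR-322-5p goes beyond the seed.
miR-15b-5p (chromosome 3, plus strand): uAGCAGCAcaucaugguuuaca
miR-15a-5p (chromosome 14, minus strand): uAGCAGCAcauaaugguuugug
miR-16-5p (from Mir16-1 and Mir16-2): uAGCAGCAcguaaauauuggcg
miR-195a-5p (chromosome 11, plus strand): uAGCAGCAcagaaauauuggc
miR-497a-5p (chromosome 11, plus strand): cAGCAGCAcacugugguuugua
Of the 12 genes with this seed, 8 reached 10 counts in both libraries, and the other 4 (Mir195b, Mir6342, Mir6353 and Mir6419) had 0 in both. Mir322 and Mir503 held 82.1% of the family's counts in replicate 1 (95% interval 81.9 to 82.2) and, in replicate 2, 82.8% (82.7 to 83.0), which averages 82.5% ± 0.531 (SD, n = 2). Nearly all of this was Mir322, with 79.1% and 78.6%. The counts sum both arms of each hairpin, and in Mir322 and Mir503 only the 5′ arm has the seed. These are therefore shares of the counts of genes and not of reads that carry the seed.

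In reads that could be assigned to a single gene, every other gene of that family lay below Mir322 in both libraries. Mir15b had 2131 CPM in replicate 1 and 2643 CPM in replicate 2, and Mir15a had 1792 and 957 CPM. Mir503, at 926 and 1527 CPM, lay among them, as did Mir195a (492 and 1257 CPM) and Mir497 (756 and 536 CPM). The order of Mir15a and Mir503 was opposite in the 2 hearts, and the values of Mir15a, Mir503 and Mir195a overlapped. Mir16-1 (356 and 643 CPM) and Mir16-2 (110 and 164 CPM) share their mature sequence, so reads of miR-16 that match both are missing from the family total behind these shares. In that respect the shares of Mir322 and Mir503 are upper limits.

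**Figure D4:**
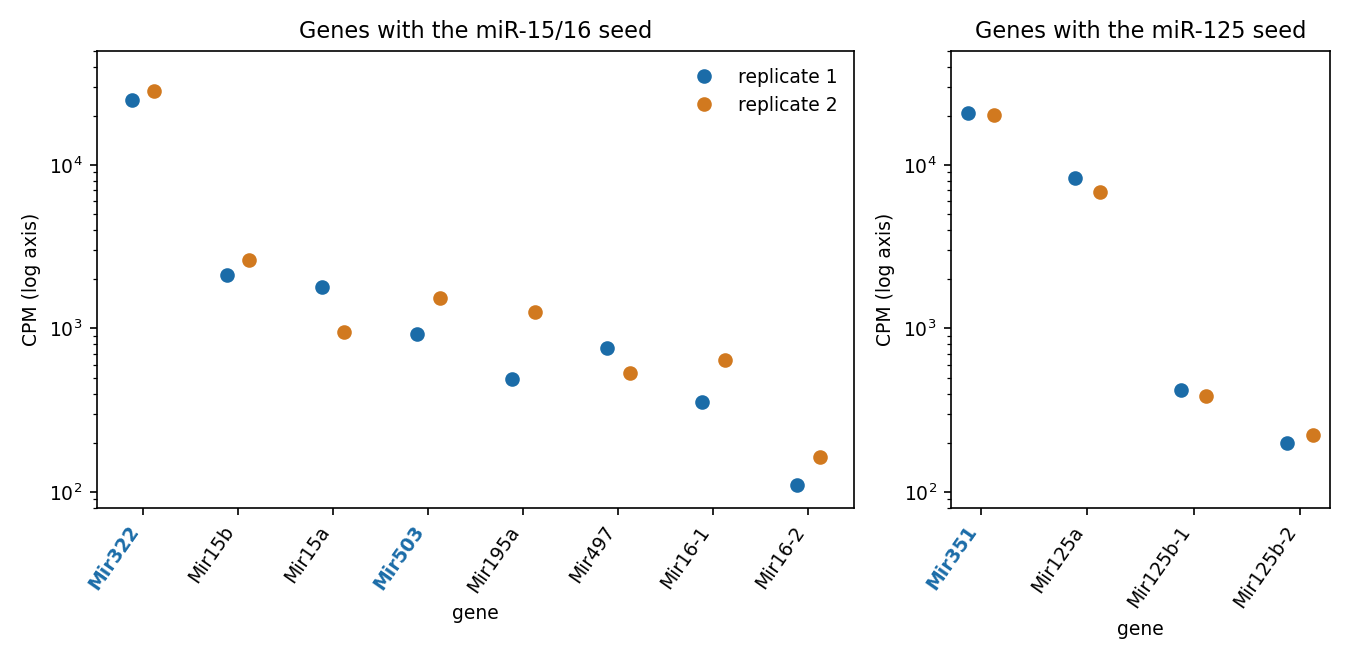
CPM on a log axis for each gene with counts and the miR-15/16 seed (left panel) or the miR-125 seed (right panel), with replicate 1 as the left and replicate 2 as the right point of each gene and polycistron members in bold. Mir322 (24892 and 28379 CPM) and Mir351 (20871 and 20184 CPM) are the highest of their families in both hearts, in counts that leave out the multi-mapped reads of Mir16-1, Mir16-2, Mir125b-1 and Mir125b-2.

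Mir351 had the most assigned counts of the genes with the miR-125 seed. Its sequence departs from the others after the seed.
miR-125a-5p (chromosome 17, plus strand): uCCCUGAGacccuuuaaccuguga
miR-125b-5p (from Mir125b-1 and Mir125b-2): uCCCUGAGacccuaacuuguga
Mir351 held 69.9% of the counts of the 6 genes with the seed in replicate 1 (95% interval 69.7 to 70.1) and 73.0% in replicate 2 (72.8 to 73.2). Here too both arms of each hairpin are summed, so this is no share of reads that carry the seed. Mir125a had 8385 CPM in replicate 1 and 6843 CPM in replicate 2. Mir125b-1 had 421 and 389 CPM and Mir125b-2 had 198 and 223 CPM, both without the multi-mapped reads of their common sequence, which are thus missing from the family total as well. In that respect the share of Mir351 is an upper limit. Mir6367 and Mir6394 had 0 counts in both libraries.

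Genes at a like level in both hearts were found by the distance of log2(CPM + 0.5) over 2 libraries, among the 372 other genes past the same minimum. The nearest to Mir322 were Mir335 (distance 0.38), Mir26b (0.51) and Mir99a (0.55), and the nearest to Mir351 were Mir26b (0.05), Mirlet7b (0.21) and Mir322 itself (0.55). With only 2 libraries this states likeness of level and no more.

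The polycistron was last set beside other clusters, defined as microRNA genes on one strand with neighbours at most 10000 nt apart and at least 3 genes with 10 counts or more in each library. There were 15 such clusters. Smaller groups were not ranked: Mir143 and Mir145a, for example, summed to 47055 CPM in replicate 1 and 60331 CPM in replicate 2. Among the 15, the polycistron had the highest summed level, 51107 CPM, without multi-mapped reads. Next were the clusters from Mir23b to Mir24-1 (45475 CPM) and from Mirlet7d to Mirlet7a-1 (38398 CPM). In those, 0 and 1 of the 3 genes past the minimum shared no 20-nt stretch, so this order rests on assigned reads. The polycistron also had the widest spread of level among its genes. Its log2 CPM ranged over 11.6 from Mir322 to Mir450-2, against a median range of 5.29 over the 15 clusters. The narrowest range was 0.89, from Mir99b to Mir125a. The polycistron's place as the widest rested on the near-copies. Without genes that have 20 consecutive nt in common with a different gene, the range was 6.02, from Mir322 to Mir450b, at place 3 among the 10 clusters that kept at least 3 genes, and the widest was then that from Mir770 to Mir136 (8.17).

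**Figure D5:**
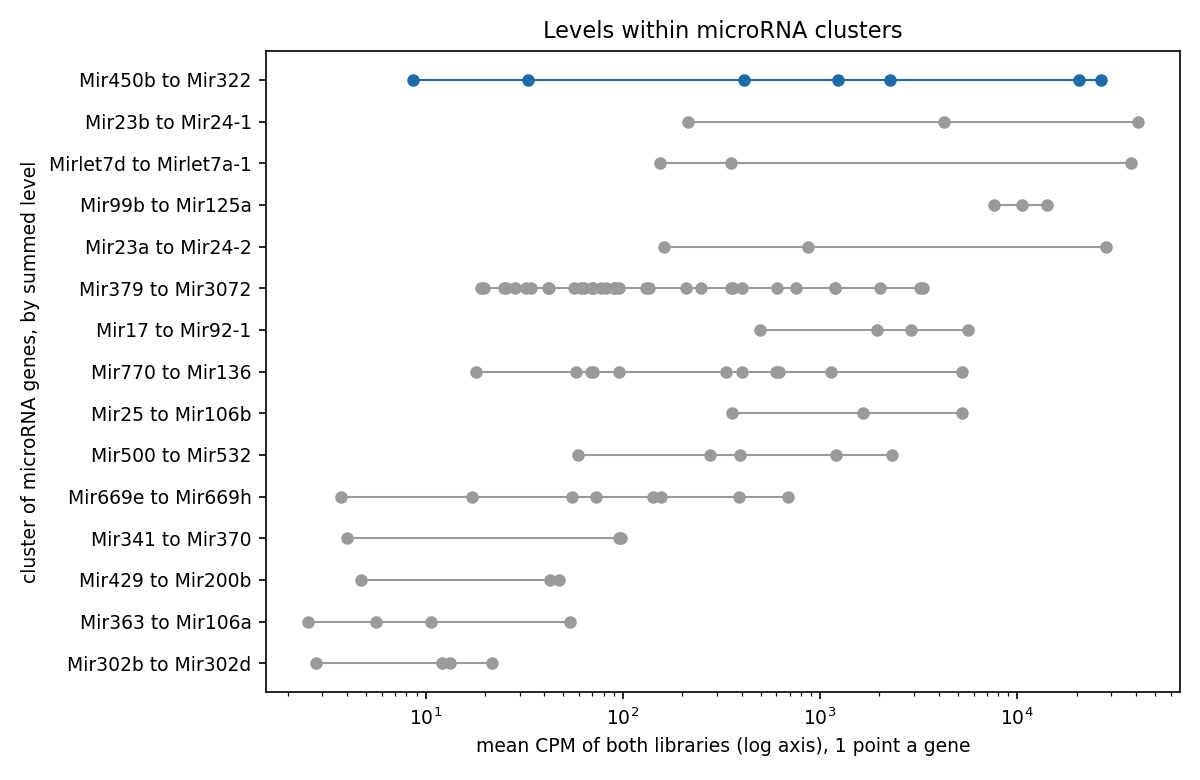
Each row is a cluster and each point 1 of its genes past the minimum of 10 counts, by mean CPM on a log axis; rows run from the highest summed level at the top, and lines join the lowest and the highest gene. The polycistron (blue, top row) spans 11.6 on the log2 scale, with Mir450-2 and Mir450-1 at its low end.

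The log2 ratio between the hearts ranged over 1.31 in the polycistron, from Mir503 to Mir450-2, the member with the fewest counts, at place 3 among the 15 clusters, whose median was 1.08. The widest was that from Mir379 to Mir3072 (3.21, over 33 genes) and the narrowest that from Mir302b to Mir302d (0.24). Without genes that have 20 consecutive nt in common with a different gene, the range in the polycistron was 0.96, from Mir503 to Mir450b, at place 7 among 10 clusters with a median of 1.04. Clusters with more genes have more room for a wide range, and none of these ranges was tested.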

How the data were processed

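Raw counts per microRNA gene were deposited, 1 file per library, in columns taken here as unstranded, own-strand and opposite-strand counts. Per the file headers and descriptions, the counts refer to mm10 and GENCODE M21. Which aligner and counter were used is not given in the sources used here. That the third column is the gene's own strand is read from the layout and from its total, 84.0% and 82.8% of the stranded counts in replicate 1 and replicate 2. Multi-mapped reads made up 39.6% and 43.2% of all reads, and the summary entries stayed out of totals. All 2202 identifiers matched M21. Of 1738 RefSeq mature entries, 1685 were placed on a gene by coordinates and strand. CPM, exact Clopper-Pearson intervals and log2 ratios (0.5 added to each count) were computed in Python 3.11.15 with scipy 1.17.1, pandas 2.3.3 and numpy 2.4.6. TMM factors (1.11 and 0.900) are from edgeR 4.0.16 and size factors from DESeq2 1.42.0 (R 4.3.3), fitted on the whole table; no count model was tested. The ratio step was tested on simulated data. Named genes were the 7 members, detected genes of both seed families, the 3 genes nearest in level to Mir322 and to Mir351, the 3 highest other X-linked genes, and the highest, widest and narrowest clusters. Members and lists were chosen with earlier results of these data known. Alternatives were total-count and median-of-ratios scaling, other count minimums, the unstranded column, multi-mapped reads in the total and other cluster gaps. Variants of the CAST parent were not examined.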

Additional observations from a re-analysis of the deposited data

How the results depend on the processing

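With multi-mapped reads in the total, the polycistron's mean share of counts was 2.61%, and in the unstranded column, whose total lacks reads over genes on opposite strands, it was 6.39%, against 5.11% as reported. The members' own counts were identical in the unstranded and own-strand columns. The share of Mir322 and Mir503 in their seed family was 84.1% in the unstranded column and 84.0% among genes that share no 20-nt stretch. The latter setting takes Mir16-1 and Mir16-2 out of the family and keeps both members, so it could only raise the share. It is no check on the miR-16 reads that are missing as multi-mapped. The number of members past 2-fold was 1 with TMM (11.8% of the 373 genes) and with median-of-ratios size factors (12.3%). It was 0 with total counts (12.9%), in the unstranded column, and when the bound of the 95% interval nearest to no difference had to pass 2-fold. TMM on genes with at least 10 counts in the sum, an alternative chosen after seeing the data, gave Mir503 a log2 ratio of −1.05. The number past 2-fold was then 1. No share over all genes is given for the unstranded column, the interval rule or this last alternative, so those member counts cannot be set beside a background. The range of log2 CPM was 4.44 in the upstream trio and 8.03 in the downstream group when neighbours had to lie within 3000 nt, and 6.02 without members sharing a 20-nt stretch, also chosen after seeing the data. No paired analysis was possible because the series holds a single group. Leaving out either replicate gives the other library's values in the report. Precision is limited by 2 hearts for all members and by counts for Mir450-2 (67 and 39).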
